A study of Mus musculus with 12 samples.

Results

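The 10 genes described here encode the main heat shock proteins of the cytosol and of mitochondria. They are Hspa8, Hspa1a, Hspa1b, Dnajb1 and Hsph1 of the cytosolic HSP70 system, Hsp90aa1 and Hsp90ab1 of cytosolic HSP90, and Hspd1, Hspe1 and Hspa9 of mitochondria. They were chosen by symbol from the 27487 genes of the expression table, and each symbol stood on 1 line of it. The gene ontology terms in the table placed every member in the cytosol except Hspe1 and Hspa9, and placed Hspd1, Hspe1, Hspa9 and also Hspa1b in the mitochondrial matrix.

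RNA was sequenced from BV2, a single immortalised line of mouse microglia, which are macrophages of the central nervous system. There were 3 groups of 4 libraries. CTR was BV2 cultured alone, Neu was BV2 cultured together with primary mouse neutrophils, and Neu+NETS was BV2 cultured together with primary mouse neutrophils that had been given phorbol 12-myristate 13-acetate (PMA). PMA activates protein kinase C and makes neutrophils release neutrophil extracellular traps (NETs), which are webs of chromatin and granule proteins. PMA and released traps come together in Neu+NETS, so the 2 cannot be told apart. The sources used here do not give the duration of co-culture, the ratio of cells, or any step that took neutrophils away ahead of RNA extraction. Nothing states that the 4 libraries of a group came from separate cultures, so p-values reflect variation among these libraries alone, which could be technical.

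Library totals ran from 53512190 to 68316549 estimated counts. Of counts from 2 to 41, 33.0% were multiples of 4, where an even spread gives 25%, so a fragment may stand for about 4 units and the totals may overstate the number of fragments. On that reading, 12 units were taken as the floor for 3 fragments. The labels name retina as the tissue as well as the BV2 line. The retinal markers found in the table summed to at most 2.10 FPKM (fragments counted per gene, scaled by the authors to transcript length and library depth) in any library. The 15 microglia and macrophage markers summed to 1328 to 1402 FPKM in CTR, 1376 to 1427 in Neu and 866 to 878 in Neu+NETS. All 15 were called lower in Neu+NETS than in CTR. The 12 neutrophil markers in the table summed to 6.06 to 7.23 FPKM in CTR, 7.44 to 7.77 in Neu and 0.923 to 1.47 in Neu+NETS. Csf3r, a cytokine receptor, made up most of the sum in CTR (mean 5.15 FPKM) and Neu (4.15). Of the 7 neutrophil markers tested, Lcn2, Mmp9 and Prtn3 were called higher in Neu than in CTR and 0 lower, with mean levels of 0.950, 1.46 and 0.399 FPKM in Neu against 0.223, 0.548 and 0.0645 in CTR. Mmp8, Camp, Ngp, Mpo and Elane, which encode granule proteins of neutrophils, were at 0 in every Neu+NETS library, and none of them had a mean over 0.185 FPKM in the other groups. In bulk RNA, fewer cells of a type and less RNA per cell cannot be told apart. The part of these marker shifts in the differences below was not tested.

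Heat shock proteins are chaperones that bind unfolded or aggregating proteins and help them fold. In the cytosol, an HSP70 binds its client with the help of a J-domain protein, is reset by a nucleotide exchange factor, and can pass the client to HSP90. In mitochondria, HSP70 takes part in pulling proteins in through the inner membrane, and the HSP60 chaperonin with its HSP10 lid folds them inside. Under proteotoxic stress, heat shock factor 1 (HSF1) binds heat shock elements, inverted repeats of a short GAA unit, and raises the inducible genes. Macrophage-lineage cells carry many of these proteins in abundance without stress.

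Promoter sequences were taken from RefSeq, build GRCm38.p6, which differs from the GRCm39 coordinates of the expression table, and nothing was converted between the builds. Of the 10 members, 6 had an entry, with 9 entries in all, each reaching from 250 bases before the transcription start to 50 after it. Both strands were searched for 2 facing units of a heat shock element (GAANNTTC or TTCNNGAA) and for 3 units (GAANNTTCNNGAA or TTCNNGAANNTTC), where each match of 3 units contains a match of 2. Of 32851 mouse promoter windows of the same length, 15.1% held the shorter motif and 0.603% the longer. The stretches below show the stress-inducible pair Hspa1a and Hspa1b, the promoter between Hspe1 and Hspd1, and the Hsph1 start, with the matched units in capitals, each written 5′ to 3′ on the strand of the named gene.
Hspa1a, chr17:34972231-34972290, minus strand: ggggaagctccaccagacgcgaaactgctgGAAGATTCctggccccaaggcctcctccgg
Hspa1b, chr17:34959313-34959372, minus strand: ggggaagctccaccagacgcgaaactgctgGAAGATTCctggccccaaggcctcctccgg
Hspe1, chr1:55088038-55088097, plus strand: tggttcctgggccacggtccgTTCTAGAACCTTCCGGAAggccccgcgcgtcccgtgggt
Hsph1, chr5:149636287-149636308, minus strand: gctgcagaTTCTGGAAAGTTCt
The 60 bases shown for Hspa1a and Hspa1b were identical, from 134 to 75 bases before each start, and held the shorter motif but not the longer. The Hspe1 stretch lies 110 to 51 bases before its start, and Hspd1 starts on the opposite strand from the same region. Of the 2 Hspd1 entries, only 1 reaches this stretch, and the other held neither motif. In Hspe1 the longer motif matched in 2 overlapping places, and the capitals span both. In Hsph1 it lay just after the start. The entries of Dnajb1 held neither motif. A match describes the letters only and says nothing of binding.

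In Neu, 6 of the 10 genes fell relative to CTR and 2 rose, where 27.9% of the 16387 genes tested were called lower and 26.1% higher. Hsph1, the HSP110 exchange factor, fell the furthest, followed by the mitochondrial chaperonin Hspd1, its lid Hspe1, and Hspa8, the constitutive HSP70. Dnajb1 and Hsp90ab1 rose slightly. In Neu+NETS, 4 genes rose relative to CTR, namely Dnajb1, Hsph1, Hsp90aa1 and Hspd1, while Hspa9 fell slightly, where 21.6% of genes were called higher and 23.7% lower. Set directly against Neu, Neu+NETS was higher for 7 members and lower for 1, where 29.4% of genes were called higher and 33.1% lower, and Hsph1 differed most, by 2.50-fold. The classical stress-induced pair Hspa1a and Hspa1b lay close to the limit of detection in all 3 groups.

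**Figure D1:**
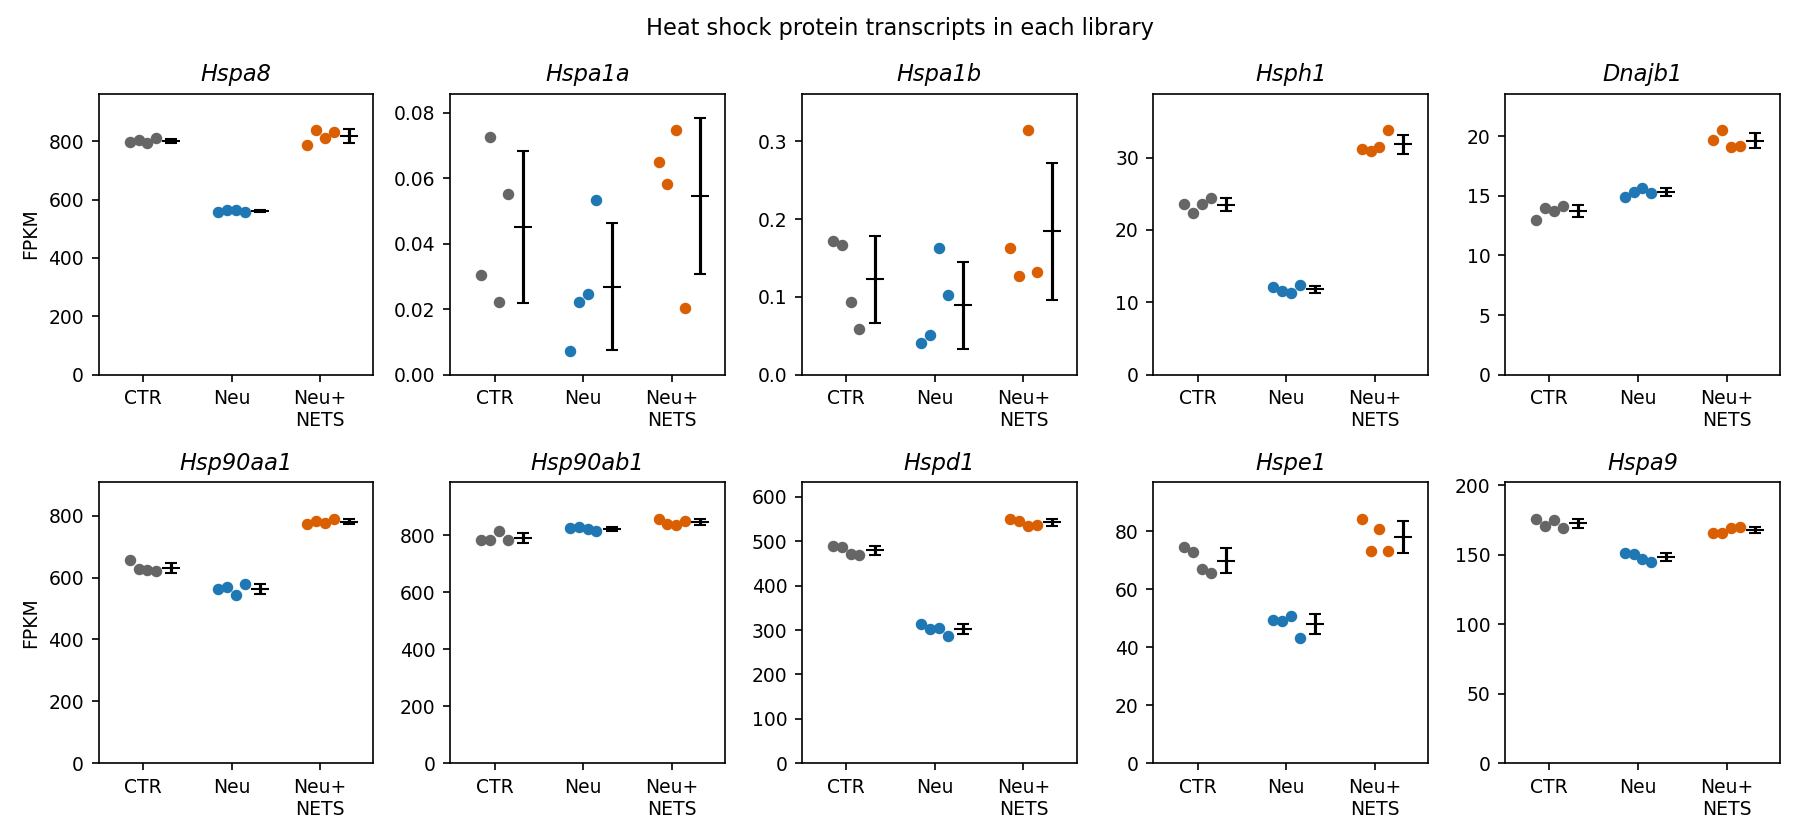
FPKM of the 10 heat shock protein genes in each of the 12 libraries (y axis, its own scale for each gene) by group (x axis), with points for libraries and black dashes for group means with SD, n = 4. For Hspa8, Hsph1, Hsp90aa1, Hspd1, Hspe1 and Hspa9 the Neu libraries lie below every library of both other groups, and Dnajb1 is highest in the Neu+NETS libraries.

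Hspa8 encodes HSC70, the HSP70 made at all times, which also takes part in uncoating clathrin vesicles and in chaperone-mediated autophagy (ENSMUSG00000015656, GRCm39 chr9:40712280-40721383). It had the highest mean level of the 10 genes in CTR, where it ranked 36 of all genes by mean FPKM. Its FPKM in CTR replicates 1 to 4 was 799, 803, 793 and 810.0. In Neu it was 558, 566, 564 and 558, and in Neu+NETS 787, 838, 810.2 and 832. Every Neu library lay below every library of the other groups, while CTR and Neu+NETS overlapped. Means were 801 ± 7.20 (SD, n = 4) in CTR, 561 ± 4.08 in Neu and 817 ± 23.2 in Neu+NETS. Hspa8 fell in Neu by 0.46 on the log2 scale (SE 0.019, adjusted p = 2.7e-12 by edgeR's quasi-likelihood test with Benjamini-Hochberg adjustment over all genes, used for every adjusted p of a gene here). Between Neu+NETS and CTR the log2 fold change was -0.021 ± 0.019 (SE, adjusted p = 0.408), and its sign depended on the scaling of the libraries. Neu+NETS exceeded Neu by 1.35-fold (log2 fold change 0.44 ± 0.019, adjusted p = 2.5e-12).

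Hspa1a and Hspa1b encode the nearly identical inducible HSP70 proteins and are the standard readout of a heat shock response (ENSMUSG00000091971, chr17:35188166-35191132, and ENSMUSG00000090877, chr17:35175412-35178214). Hspa1a lay between 0.00727 and 0.0747 FPKM over the 12 libraries, from 2 to 17 counts, and only 3 libraries exceeded the floor of 12 units. Hspa1b lay between 0.0405 and 0.314 FPKM, from 8 to 66 counts, with 9 of 12 libraries above that floor. The groups overlapped for both genes. Adjusted p for Hspa1a was 0.465 for Neu against CTR, 0.813 for Neu+NETS against CTR and 0.284 for Neu+NETS against Neu. For Hspa1b these were 0.566, 0.455 and 0.141. A difference was not detectable at this depth, and no fold is given. Reads of the pair can be split arbitrarily: 47.1% of the 100-base windows of the Hspa1a transcript (GENCODE M21) also occurred in Hspa1b, and none in Hspa8. Read together, the pair made up 0.0209% ± 0.00788 (SD, n = 4) of the summed FPKM of Hspa1a, Hspa1b and Hspa8 in CTR, 0.0207% ± 0.0118 in Neu and 0.0293% ± 0.0132 in Neu+NETS. The groups overlapped in all 3 comparisons, with two-sided exact permutation p = 0.971 for Neu against CTR, 0.343 for Neu+NETS against CTR and 0.4 for Neu+NETS against Neu.

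Dnajb1 encodes HSP40, the J-domain protein that delivers clients to HSP70 and stimulates its ATPase (ENSMUSG00000005483, chr8:84334822-84339282). Its FPKM was 13.0, 14.0, 13.7 and 14.1 in CTR, 14.9, 15.3, 15.7 and 15.3 in Neu, and 19.7, 20.5, 19.1 and 19.2 in Neu+NETS. The 3 groups did not overlap, and Dnajb1 was the only member whose libraries lay in the order CTR, Neu, Neu+NETS without overlap and with every step called in that direction. It rose in Neu by a log2 fold change of 0.22 ± 0.040 (SE, adjusted p = 0.00019). It rose in Neu+NETS by 1.38-fold relative to CTR (log2 fold change 0.47 ± 0.040, adjusted p = 4.9e-08). Neu+NETS exceeded Neu by 1.19-fold (adjusted p = 2.8e-05).

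Hsph1 encodes HSP105, an HSP110 that exchanges the nucleotide of HSP70 and works with it against aggregates (ENSMUSG00000029657, chr5:149537752-149559841). Its FPKM was 23.6, 22.3, 23.6 and 24.4 in CTR, 12.1, 11.5, 11.3 and 12.4 in Neu, and 31.1, 30.9, 31.5 and 33.8 in Neu+NETS. Again no group overlapped another, with Neu lowest and Neu+NETS highest. Hsph1 fell in Neu by 0.93 on the log2 scale (SE 0.034, adjusted p = 6.5e-13), which is 1.91-fold. It rose in Neu+NETS by 1.31-fold relative to CTR (log2 fold change 0.39 ± 0.034, adjusted p = 6.1e-08). The difference of Neu+NETS from Neu was a log2 fold change of 1.32 ± 0.035 (adjusted p = 3.5e-15). Hsph1 and Dnajb1 both act on HSP70, and they moved in opposite directions in Neu and in the same direction in Neu+NETS.

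Cytosolic HSP90 matures kinases, steroid receptors and other signalling proteins, and comes from 2 genes. Hsp90aa1 is the more stress-responsive form (ENSMUSG00000021270, chr12:110657039-110669162) and Hsp90ab1 the constitutive form (ENSMUSG00000023944, chr17:45878701-45884197). Hsp90aa1 FPKM was 656, 628, 624 and 619.9 in CTR, 562, 569.7, 543 and 579 in Neu, and 772, 784, 777 and 790.6 in Neu+NETS. The 3 groups did not overlap. Hsp90aa1 fell in Neu by 0.11 on the log2 scale (SE 0.020, adjusted p = 0.000208). It rose in Neu+NETS by 1.19-fold relative to CTR (log2 fold change 0.26 ± 0.020, adjusted p = 2.2e-08) and exceeded Neu there by 1.29-fold (adjusted p = 6.5e-11).

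Hsp90ab1 FPKM was 784, 782, 816 and 781 in CTR, 825, 830.4, 821 and 814 in Neu, and 858, 840.2, 837 and 849.8 in Neu+NETS. CTR replicate 3 stood apart from the other CTR libraries and overlapped Neu. The test called a rise in Neu (log2 fold change 0.11 ± 0.020, adjusted p = 0.000121). For Neu+NETS against CTR the log2 fold change was 0.049 ± 0.020 (adjusted p = 0.0569). This difference stayed uncalled under 12 of 22 alternatives. It was called under the others, which include leaving out CTR replicate 3 (adjusted p = 0.0153). For Neu+NETS against Neu the log2 fold change of TMM-scaled counts was -0.064 ± 0.020 (adjusted p = 0.0101), although every Neu+NETS library had the higher FPKM. With library size alone as the scaling it was 0.0077, so the order of these 2 groups was not settled for this gene. With library size alone, on the same 16387 genes, the median log2 fold change of all genes lay 0.072 higher for Neu+NETS against Neu than with TMM. Limma on log2(FPKM + 1) differs in the method and the genes tested (11735) as well as the scaling, and there the median lay 0.15 higher for Neu+NETS against Neu and 0.10 lower for Neu against CTR. In that fit the share of called genes that were higher was 39.0% in Neu against CTR, 58.3% in Neu+NETS against CTR and 59.6% in Neu+NETS against Neu, beside 48.3%, 47.6% and 47.1% on TMM-scaled counts.

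Within a library the balance of the 2 HSP90 genes does not depend on that scaling. Hsp90aa1 made up 45.5%, 44.5%, 43.3% and 44.2% of their summed FPKM in CTR, 40.5%, 40.7%, 39.8% and 41.6% in Neu, and 47.4%, 48.3%, 48.1% and 48.2% in Neu+NETS. The groups did not overlap. The share was 3.77 percentage points lower in Neu than in CTR (40.6% ± 0.716 against 44.4% ± 0.914, SD, n = 4, two-sided exact permutation p = 0.0286). It was 3.58 points higher in Neu+NETS (48.0% ± 0.421) than in CTR and 7.35 points higher than in Neu, each with an exact permutation p = 0.0286. That is the smallest p that 4 against 4 libraries allow, and over the 9 tests of ratios the adjusted p was 0.0857, so none passed the correction.

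**Figure D2:**
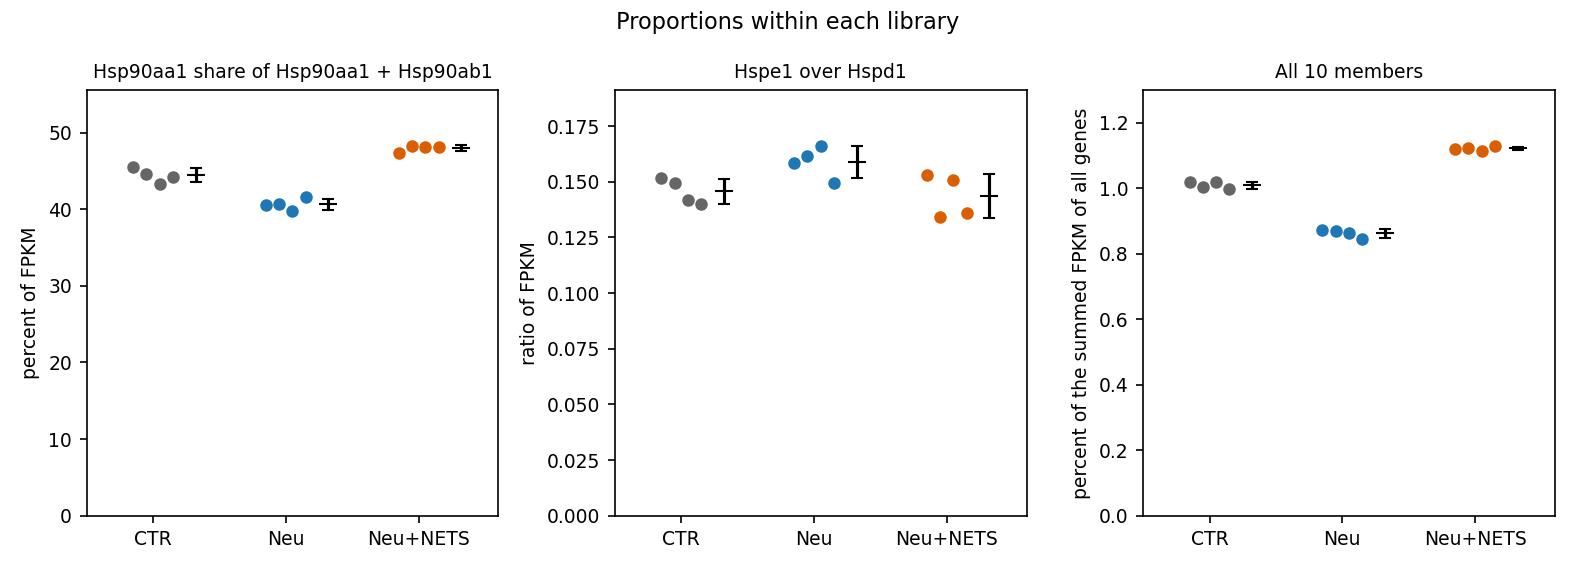
Values within a library, by group (x axis): the percent of HSP90 FPKM from Hsp90aa1, the ratio of Hspe1 to Hspd1 FPKM, and the percent of all FPKM held by the 10 members, with points for libraries and black dashes for means with SD, n = 4. The Hsp90aa1 share lies between 39.8% and 41.6% in Neu, 43.3% and 45.5% in CTR, and 47.4% and 48.3% in Neu+NETS, the groups overlap in the Hspe1 to Hspd1 ratio, and the members' share runs from 0.844% to 0.872% in Neu, 0.997% to 1.02% in CTR and 1.11% to 1.13% in Neu+NETS.

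Hspd1 encodes HSP60, the chaperonin of the mitochondrial matrix (ENSMUSG00000025980, chr1:55116994-55127402), and Hspe1 encodes HSP10, which caps it (ENSMUSG00000073676, chr1:55127291-55130466). The 2 genes lie head to head, and their spans overlap by 112 bases on opposite strands. The sources used here do not give the strand setting of the counting, so reads there are uncertain. Hspd1 FPKM was 490.2, 487, 472 and 468 in CTR, 312, 303, 306 and 288 in Neu, and 551, 546, 535 and 537 in Neu+NETS. No group overlapped another, with Neu lowest and Neu+NETS highest. Hspd1 fell in Neu by 0.61 on the log2 scale (SE 0.030, adjusted p = 1.9e-11), which is 1.52-fold. It rose in Neu+NETS by 1.09-fold relative to CTR (log2 fold change 0.13 ± 0.029, adjusted p = 0.00156) and exceeded Neu by 1.67-fold (adjusted p = 8.4e-13).

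Hspe1 FPKM was 74.4, 72.7, 66.9 and 65.5 in CTR, 49.5, 49.1, 50.7 and 43.0 in Neu, and 84.3, 73.3, 80.8 and 73.1 in Neu+NETS. The Neu libraries lay below all others, and CTR and Neu+NETS overlapped. Hspe1 fell in Neu by 0.48 on the log2 scale (SE 0.064, adjusted p = 6.0e-06), which is 1.40-fold. Against CTR, Neu+NETS had a log2 fold change of 0.11 ± 0.064 (adjusted p = 0.191). Neu+NETS exceeded Neu by 1.51-fold (adjusted p = 3.8e-07). The ratio of Hspe1 to Hspd1 FPKM was 0.146 ± 0.00575 (SD, n = 4) in CTR, 0.159 ± 0.00705 in Neu and 0.144 ± 0.00981 in Neu+NETS. Exact permutation p was 0.0571 for Neu against CTR, 0.629 for Neu+NETS against CTR and 0.0857 for Neu+NETS against Neu. Hspd1-ps3, a pseudogene with a line of its own, had mean levels of 13.7 FPKM in CTR, 9.13 in Neu and 16.8 in Neu+NETS. Reads from near-identical copies may be split between such lines.

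Hspa9 encodes mortalin, the mitochondrial HSP70 of the import motor and of iron-sulphur cluster assembly (ENSMUSG00000024359). Its FPKM was 176, 171, 175 and 169 in CTR, 151, 150.4, 147 and 145 in Neu, and 166, 166, 169.6 and 170.1 in Neu+NETS. Neu lay below the others, and CTR and Neu+NETS overlapped. Hspa9 fell in Neu by 0.16 on the log2 scale (SE 0.025, adjusted p = 2.5e-05), less than its chaperonin partners Hspd1 and Hspe1. In Neu+NETS it fell by 0.090 relative to CTR (SE 0.025, adjusted p = 0.00648), a call that was lost with library size alone as the scaling (log2 fold change -0.034, adjusted p = 0.319). Neu+NETS exceeded Neu by 1.05-fold (adjusted p = 0.0173), a call lost without Neu replicate 4 (adjusted p = 0.0712) or without Neu+NETS replicate 3 (adjusted p = 0.0503).

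Over the 8 members above the floor in every library, the median log2 fold change was -0.31 in Neu against CTR, beside 0.020 over all genes tested. It was 0.12 in Neu+NETS against CTR, beside 0.00021, and 0.40 in Neu+NETS against Neu, beside -0.049. With the fitted values of Hspa1a and Hspa1b included, which are not resolved at this depth, the medians over 10 members were -0.43, 0.18 and 0.51. The first 2 comparisons share the CTR libraries, and the last shares libraries with both. Hsp90aa1, Hspd1 and Hsph1 were called lower in Neu and higher in Neu+NETS, each against CTR, as were 9.37% of the genes tested. By group ranges of FPKM that did not overlap, 1 member was higher and 6 were lower in Neu against CTR, where 22.5% and 29.0% of genes were so placed. In Neu+NETS, 5 members were higher and 0 lower against CTR (23.7% and 18.4% of genes), and 8 were higher and 0 lower against Neu (32.6% and 26.9%).

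**Figure D3:**
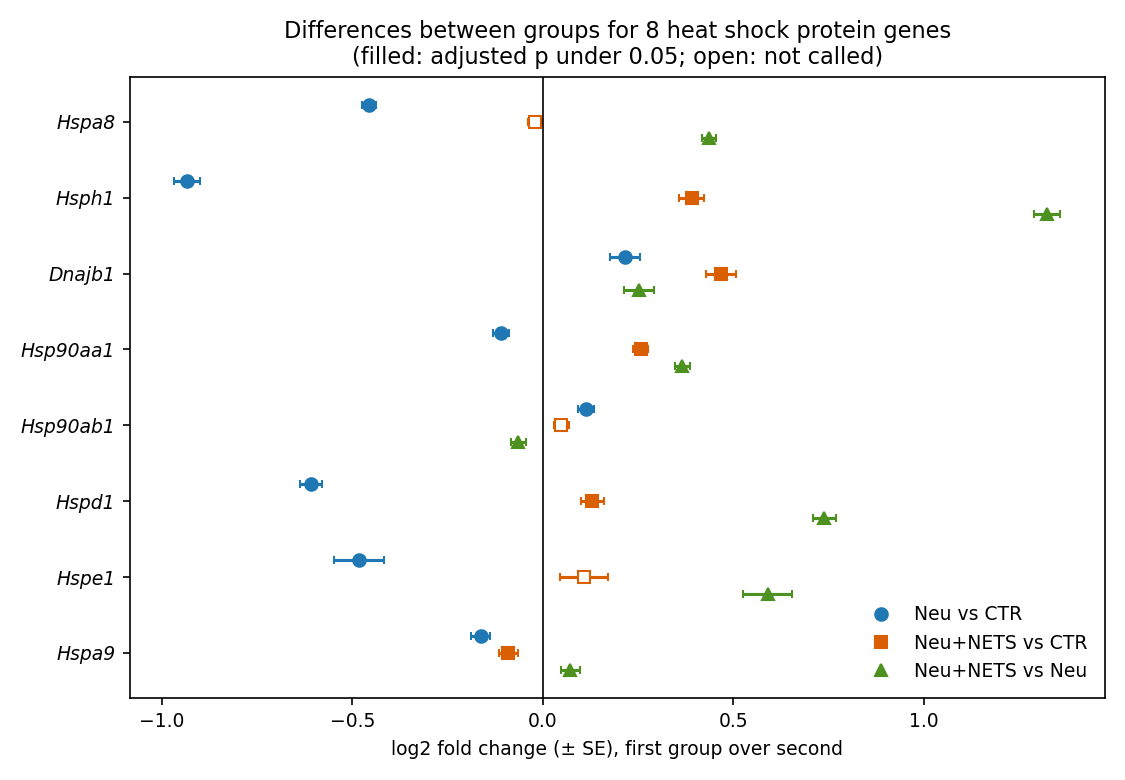
Log2 fold change with SE (x axis) of the 8 members above the floor (y axis) in the 3 comparisons, from edgeR's fit over 12 libraries, with filled points where the adjusted p was under 0.05 and open points elsewhere. Hsph1 spans the widest range of these 8, from -0.93 in Neu against CTR to 1.32 in Neu+NETS against Neu.

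By mean FPKM, the order in CTR was Hspa8, Hsp90ab1, Hsp90aa1, Hspd1, Hspa9, Hspe1, Hsph1 and Dnajb1, with Hspa1b and Hspa1a last. The FPKM ranges of Hspa8 (793 to 810.0) and Hsp90ab1 (781 to 816) overlapped in CTR. In Neu, Hsp90ab1 was first, at 823 ± 7.09 FPKM (SD, n = 4), and Hsp90aa1 (563 ± 15.2) and Hspa8 (561 ± 4.08) overlapped behind it. In Neu+NETS, Hsp90ab1 stood at 846 ± 9.46 FPKM, Hspa8 at 817 ± 23.2 and Hsp90aa1 at 781 ± 8.14, and the range of Hspa8 overlapped both of the others. Among all genes, Hspd1 ranked 59 by mean FPKM in CTR, 122 in Neu and 50 in Neu+NETS. Hsph1 ranked 2288, 4036 and 1659. Hsp90ab1 kept to ranks 38, 32 and 29. The 10 genes together held 1.01% ± 0.0104 (SD, n = 4) of all FPKM in CTR, 0.862% ± 0.0127 in Neu and 1.12% ± 0.00571 in Neu+NETS. These shares did not overlap between groups, running from 0.997% to 1.02% in CTR, 0.844% to 0.872% in Neu and 1.11% to 1.13% in Neu+NETS. Hspa8, Hsp90aa1, Hsp90ab1 and Hspd1 supplied 90.5% to 91.2% of that total in every library.

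Heat shock factors were measured in the same libraries. Hsf1, the main factor of the heat shock response, had 8.45 ± 0.413 FPKM (SD, n = 4) in CTR, 5.11 ± 0.456 in Neu and 9.82 ± 0.296 in Neu+NETS. It fell in Neu by 0.67 on the log2 scale (adjusted p = 6.3e-09) and rose in Neu+NETS by 0.17 (adjusted p = 0.0116). Hsf2 had 2.38 ± 0.148 FPKM in CTR, 2.05 ± 0.0931 in Neu and 3.35 ± 0.422 in Neu+NETS. It rose in Neu+NETS (log2 fold change 0.44, adjusted p = 0.00015), and in Neu its log2 fold change was -0.16 (adjusted p = 0.0971). Hsf4 fell in Neu+NETS by 1.00 on the log2 scale (adjusted p = 5.1e-08), from 5.36 ± 0.316 to 2.77 ± 0.0930 FPKM. Messenger RNA of HSF1 does not report its activity, which is set by trimer formation and phosphorylation of the protein. Of 14 tested other heat-shock-inducible genes, some of which also stand in the lists below, 5 rose and 7 fell in Neu and 10 rose and 1 fell in Neu+NETS, each against CTR, where 26.1% and 27.9% of all genes rose and fell in Neu and 21.6% and 23.7% in Neu+NETS.

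The relatives and partners of HSP70 were a mixed group. Counts for them and for the lists that follow stand beside the shares called and the medians over all genes given above. Of 15 tested HSP70 relatives, exchange factors and other partners, 3 rose and 8 fell in Neu against CTR. In Neu+NETS 7 rose and 3 fell, and the median log2 fold changes were -0.20 and 0.088. Hspa4, another HSP110, had 101 ± 2.84 FPKM (SD, n = 4) in CTR, 66.3 ± 1.04 in Neu and 118 ± 2.25 in Neu+NETS, so it fell and rose as Hsph1 did. Hspa4l, a close relative, rose in Neu instead, from 4.20 ± 0.290 to 6.45 ± 0.211 FPKM. Hspa14, a ribosome-associated HSP70, fell in Neu (log2 fold change -0.55) and rose in Neu+NETS (0.26). Hspbp1, an exchange factor, fell in both (-0.82 and -0.19), in Neu+NETS with an adjusted p close to the threshold (0.0425). Of 15 tested J-domain proteins of the cytosol, 5 rose and 6 fell in Neu, and 8 rose and 2 fell in Neu+NETS. Dnajc9, which also chaperones histones, fell in Neu from 16.2 ± 0.960 to 7.31 ± 0.388 FPKM and stood at 20.4 ± 1.04 in Neu+NETS. Dnajc5, the cysteine-string protein of secretory vesicles, rose in Neu from 20.7 ± 1.05 to 28.4 ± 0.926 FPKM.

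The co-chaperones of HSP90 were mostly lower in Neu. Of 20 tested, 17 fell and 2 rose against CTR, with a median log2 fold change of -0.38, where 27.9% of all genes fell. In Neu+NETS 10 rose and 3 fell, with a median of 0.10, and against Neu 17 were higher and 2 lower. Cacybp, the calcyclin-binding protein, fell in Neu from 56.9 ± 1.60 to 23.5 ± 0.463 FPKM (SD, n = 4) and stood at 71.2 ± 2.30 in Neu+NETS. Fkbp4, an immunophilin of steroid receptor complexes, fell from 125 ± 2.74 to 60.3 ± 2.41 FPKM in Neu and stood at 119 ± 1.08 in Neu+NETS. Ahsa1, the activator of the HSP90 ATPase, fell from 75.3 ± 2.55 to 37.6 ± 2.26 FPKM in Neu, and in Neu+NETS it stood at 78.3 ± 1.88. Fkbp4 was called lower in Neu+NETS than in CTR (log2 fold change -0.12), while Ahsa1 was not called (0.0081, adjusted p = 0.905). The log2 fold changes of Cacybp (-1.22), Fkbp4 (-0.99) and Ahsa1 (-0.95) in Neu against CTR compare with -0.11 for Hsp90aa1 and 0.11 for Hsp90ab1 themselves.

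In mitochondria, of 11 tested co-chaperones and parts of the import motor, 9 fell and 1 rose in Neu against CTR, and 4 rose and 3 fell in Neu+NETS. The median log2 fold change in Neu was -0.30. Trap1, the mitochondrial HSP90, fell in both, from 99.3 ± 2.17 FPKM (SD, n = 4) in CTR to 74.7 ± 1.88 in Neu and 81.9 ± 2.18 in Neu+NETS. Tomm70a, an outer-membrane import receptor that docks HSP70 and HSP90, fell in Neu (log2 fold change -0.46) and rose in Neu+NETS (0.23). The 13 mitochondrial proteases tested were divided, with 5 higher and 4 lower in Neu, and 3 higher and 2 lower in Neu+NETS, each against CTR. Lonp1, the matrix protease that degrades damaged proteins, rose in Neu from 55.1 ± 1.63 to 83.6 ± 1.68 FPKM. Afg3l2, a subunit of the inner-membrane protease, rose from 20.2 ± 0.468 to 34.0 ± 0.855 FPKM. Both were above CTR in Neu+NETS too, at 64.1 ± 2.15 and 24.96 ± 0.160 FPKM. Htra2, the protease of the intermembrane space, fell in Neu from 48.4 ± 1.93 to 26.4 ± 1.31 FPKM and had 47.0 ± 1.59 in Neu+NETS. The protease Parl also fell in Neu (log2 fold change -0.65). Lonp1 and Afg3l2 thus rose in Neu, where Hspd1, Hspe1 and Hspa9 fell, while Htra2 and Parl fell with those 3 chaperones.

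Of the 9 CCT chaperonin subunits, which fold actin and tubulin in the cytosol, 6 fell and 0 rose in Neu against CTR, and 8 rose and 0 fell in Neu+NETS. Cct3 had 133 ± 1.10 FPKM (SD, n = 4) in CTR, 93.7 ± 1.35 in Neu and 156 ± 3.92 in Neu+NETS, and Cct5 had 168 ± 6.35, 127 ± 2.26 and 203 ± 4.85. Of 6 subunits of prefoldin, which hands clients to CCT, 2 fell in Neu and 3 rose in Neu+NETS, with 0 changed the other way. Chaperones of the endoplasmic reticulum, which are set by a different stress pathway, gave 2 higher and 13 lower of 17 tested in Neu, and 14 higher and 1 lower in Neu+NETS. Hspa5, the HSP70 of that compartment, had 279 ± 3.44 FPKM in CTR, 193 ± 3.84 in Neu and 395 ± 6.86 in Neu+NETS. P4hb, the protein disulphide isomerase, went the other way in Neu, where it rose from 186 ± 4.89 to 408 ± 10.05 FPKM. Of 10 small heat shock proteins listed, 8 were in the table and 3 passed the filter on low counts. Hspb7 was the only one of the 3 called in Neu, where it rose from 52.6 ± 3.30 to 109 ± 1.98 FPKM. It had 52.6 ± 1.36 in Neu+NETS (adjusted p = 0.376 against CTR). The stress-inducible Hspb1, singled out after its values were seen, reached at most 0.524 FPKM in any library, beside Hspa1a and Hspa1b.

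**Figure D4:**
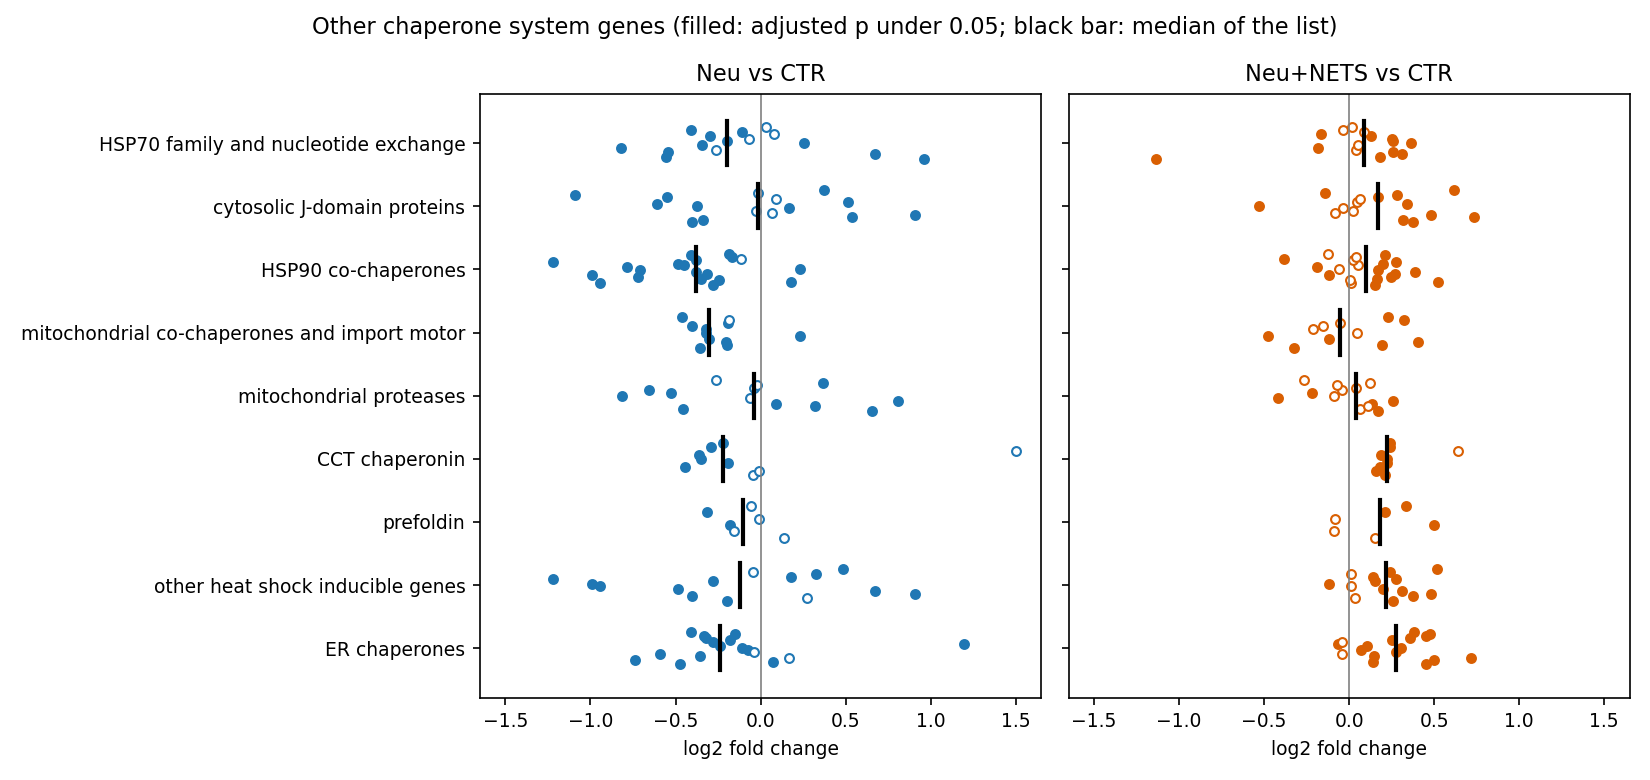
Log2 fold change (x axis) of each tested gene in the lists with at least 6 tested genes (y axis) against CTR, for Neu and for Neu+NETS, with filled points where the adjusted p was under 0.05 and open points elsewhere, and a black bar at each list's median. The medians of HSP90 co-chaperones (-0.38 and 0.10), CCT subunits (-0.22 and 0.22) and chaperones of the endoplasmic reticulum (-0.24 and 0.28) are below 0 in Neu and above 0 in Neu+NETS. The remaining lists shown have the same signs, except mitochondrial co-chaperones and import motor, below 0 in both (-0.30 and -0.055).

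Across the 12 libraries the members did not follow 1 pattern. Pearson's r of log2 CPM, given as a description because all points share the same 3 groups of libraries, was 0.966 for Hspd1 with Hspe1, 0.977 for Hspd1 with Hsph1 and 0.969 for Hspa8 with Hspd1. It was 0.010 for Hspa8 with Dnajb1 and -0.83 for Hspa8 with Hsp90ab1. These log2 CPM were TMM-scaled, which placed Hsp90ab1 higher in Neu than in Neu+NETS. Library size alone and FPKM reversed that order, so the r of Hspa8 with Hsp90ab1 may depend on the scaling, which was not tested. Among 6637 genes with a mean of at least 5 FPKM in every group, those most like Hsph1 were Otud4, Abce1 and Slc16a1, each with r = 0.997. Those most like Hspd1 were Nol10 (0.997), Trmt6 (0.996) and Pnn (0.995), and those most like Hspa8 were Srsf3 (0.996), Mcm2 (0.996) and Rrm1 (0.995). For Hsp90aa1 they were Mtfr1 (0.996), Ykt6 (0.992) and Sdad1 (0.991), and for Dnajb1 they were Caml (0.979), Tnfrsf26 (0.974) and Dmwd (0.974). None of these nearest genes was shared between those 5 members. With only 3 genes kept for each, this cannot show whether the members share a pattern.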

How the data were processed

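Polyadenylated RNA of 12 BV2 libraries was analysed from 1 table of 27487 genes, with 0 columns left unmatched to a library. The estimated counts are whole numbers with differing library totals, and were used as deposited. FPKM are the authors' own values, named so per the file headers. HISAT2 2.0.4, StringTie 1.3.4d, edgeR and GRCm39 are named in the submitters' processing notes. The sources used here do not give the annotation release, strand setting or filters.

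Members and gene lists were chosen with earlier results of these data known. Genes passing filterByExpr (16387, including all 10 members) were scaled by TMM (factors 0.970 to 1.03) and entered 1 quasi-likelihood fit over 12 libraries (edgeR 4.0.16, R 4.3.3). Tests were two-sided, with Benjamini-Hochberg adjustment within a comparison and calls at an adjusted p under 0.05. SE was obtained as the size of the log2 fold change over the square root of F. Ratios within a library were compared by exact permutation tests. From each list, up to 4 genes with the smallest adjusted p against CTR and a mean of at least 5 FPKM in a group could be named, plus Hsf1 and Hsf2. For each member, the 3 genes with the highest r were found. Alternatives were other size factors, no filter, DESeq2 1.42.0, limma 3.58.1 on log2(FPKM + 1) and log2(FPKM + 0.1), the compared groups alone, a replicate block, counts divided by 4, Hspa1a and Hspa1b summed, and leaving out each library. For ratios, group medians and deposited counts were tried. The fits were tested on simulated data. Floors cover counting error only. The smallest 4-against-4 p limits the ratio tests.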

Additional observations from a re-analysis of the deposited data

Results flagged for a closer look

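Each group of 4 libraries was searched for a highest or lowest value far from the others, which chance gives in about 1 in 20 groups. Over the members and ratios in 3 groups, chance alone can give a few such values. The Hsp90ab1 level of CTR replicate 3 (816 FPKM) stood apart from the other CTR libraries (781 to 784), with a gap of 0.935 of the group's range. The Hsp90aa1 share of cytosolic HSP90 in Neu+NETS replicate 1 (47.4%) lay below the other Neu+NETS libraries (48.1% to 48.3%), with a gap of 0.853 of the range.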

How the results depend on the processing

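Of the 24 log2 fold changes of the 8 members above the floor, 18 kept their direction and side of the threshold under all 22 alternatives. The count of members lower in Neu+NETS than in CTR went from 1 to 0 with library size alone and with limma on log2(FPKM + 1) or log2(FPKM + 0.1). The count lower in Neu+NETS than in Neu went from 1 to 0 under the same 3 settings, with no filter, and with only the compared groups in the fit. The Hspa8 log2 fold change in Neu+NETS against CTR reversed to 0.0025 with DESeq2 size factors, 0.035 with library size alone, 0.0094 with DESeq2, and 0.028 with limma at either pseudocount. For Hsp90ab1 in Neu+NETS against Neu it reversed to 0.0077 with library size alone and to 0.041 with limma at either pseudocount (adjusted p = 0.0854 and 0.0853). These settings differ in how libraries are scaled, and the cause was not tested further. Hsp90ab1 in Neu+NETS against CTR was called under 10 alternatives. Hspe1 in Neu+NETS against CTR was called with library size alone (adjusted p = 0.0479) and with limma (0.0482 and 0.0490). The difference in the inducible share of HSP70 between Neu and CTR was 0.00053 percentage points with group medians and ran from -0.00444 to 0.00379 with 1 library left out. That of the Hspe1 to Hspd1 ratio between Neu+NETS and CTR ran from -0.00531 to 0.00097, and the cause was not tested. With 1 library left out, exact tests of ratios cannot pass the correction. No pairing by replicate number was seen in the values. With each gene's group mean taken out of log2 CPM, same-numbered libraries of different groups had correlations of -0.055 to 0.043. For libraries of different numbers they ran from -0.047 to 0.047. These values do not give whether the design paired the libraries. With a replicate block, 2 members were higher and 6 lower in Neu, as without it. The block also left 4 and 1 in Neu+NETS against CTR, and 7 and 1 in Neu+NETS against Neu. Dividing the counts by 4 left 13360 genes past the filter, without Hspa1a and Hspa1b. Among the 8 members above the floor it changed 1 result, calling Hsp90ab1 higher in Neu+NETS than in CTR (log2 fold change 0.053, adjusted p = 0.0321 by edgeR). Depth limits Hspa1a and Hspa1b.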
